A study of Mus musculus with 2 samples.

Results

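The 10 genes described here encode the 5 DNA-binding subunits of the transcription factor NF-kB (Nfkb1, Nfkb2, Rel, Rela and Relb) and 5 proteins of the inhibitor (IkB) family that bind them (Nfkbia, Nfkbib, Nfkbie, Nfkbiz and Bcl3). They were found as every array probe whose RefSeq accession, without its version, maps to 1 of these symbols. All 10 genes had at least 1 probe, giving 14 probes of 55669 on each array and 10 genes of the 20143 that could be named in this way. All 14 probes were well above background on both arrays.

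Bone marrow cells of C57BL/6 mice were cultured for 4 days in 5% fetal bovine serum medium. Both cultures received 40 ng/ml GM-CSF, which drives growth of myeloid cells. One culture also received 40 ng/ml IL-6 (GM-CSF + IL-6) and the other did not (GM-CSF ONLY). Both are labelled as myeloid-derived suppressor cells, a population of immature cells able to dampen T cell responses. The RNA of a culture was read on 1 Agilent array with a single dye. With 1 array per condition no difference has a replicate check, no test was made and no p-value is given.

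NF-kB acts as pairs of subunits. In resting cells the inhibitors Nfkbia, Nfkbib and Nfkbie hold these pairs in the cytoplasm, and signals from Toll-like receptors, TNF or IL-1 activate a kinase complex that marks the inhibitor for destruction, so that the pair enters the nucleus. A slower, non-canonical route processes the Nfkb2 precursor and uses Relb. Nfkbiz and Bcl3 differ from the classical inhibitors in that they work in the nucleus, where they bind subunits and can raise or lower transcription of target genes. In myeloid cells the pathway drives inflammatory cytokines and survival genes, and several of its own components are among its targets. IL-6, the added cytokine, signals mainly through STAT3.

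Some promoters of these genes hold the binding motif of NF-kB itself. Of the 10 genes, 7 had a promoter window in the RefSeq table (assembly GRCm38.p6, 250 bases before to 50 after a transcript start), and 5 of the 7 held the kappaB consensus decamer, the motif bound by NF-kB, on at least 1 strand. The motif is found in 5.14% of the 27025 genes with a window and in 4.50% of all 32851 windows of this length. A second kappaB motif with free middle bases, which overlaps the decamer, was found in 4 of the 7 genes (Rel, Nfkb2, Nfkbia and Nfkbie) and in 6.30% of all genes. The motif TTCNNNGAA, bound by STAT factors and searched on both strands, was found in 1 of the 7, Nfkb2, and in 9.55% of all genes. The windows of Rela and Nfkbib held none of the 3 motifs. For each of the 5 genes with a decamer, 1 window is printed 5′ to 3′ to show where the motif lies, with the decamer in capitals. For Nfkb2 this is the first of its 3 windows, all of which held a decamer.
Rel, chr11:23770920-23771219, minus strand: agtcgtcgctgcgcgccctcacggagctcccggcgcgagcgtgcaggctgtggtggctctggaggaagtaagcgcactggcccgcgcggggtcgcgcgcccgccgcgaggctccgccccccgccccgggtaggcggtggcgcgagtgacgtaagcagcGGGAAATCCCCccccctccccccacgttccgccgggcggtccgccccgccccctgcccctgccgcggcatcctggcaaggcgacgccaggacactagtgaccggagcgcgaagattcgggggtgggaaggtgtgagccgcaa
Nfkb2, chr19:46304487-46304786, plus strand: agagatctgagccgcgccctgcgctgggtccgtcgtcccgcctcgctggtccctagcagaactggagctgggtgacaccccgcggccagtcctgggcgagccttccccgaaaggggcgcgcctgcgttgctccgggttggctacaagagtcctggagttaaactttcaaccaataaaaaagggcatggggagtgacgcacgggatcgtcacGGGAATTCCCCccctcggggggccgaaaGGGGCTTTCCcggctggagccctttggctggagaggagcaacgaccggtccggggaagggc
Nfkbia, chr12:55492598-55492897, minus strand: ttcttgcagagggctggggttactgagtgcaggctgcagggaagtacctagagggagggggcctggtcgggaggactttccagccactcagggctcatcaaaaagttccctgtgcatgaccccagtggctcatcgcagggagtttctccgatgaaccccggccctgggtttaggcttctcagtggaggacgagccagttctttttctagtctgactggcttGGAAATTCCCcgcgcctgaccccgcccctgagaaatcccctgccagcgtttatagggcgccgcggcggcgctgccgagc
Nfkbie, chr17:45555450-45555749, plus strand: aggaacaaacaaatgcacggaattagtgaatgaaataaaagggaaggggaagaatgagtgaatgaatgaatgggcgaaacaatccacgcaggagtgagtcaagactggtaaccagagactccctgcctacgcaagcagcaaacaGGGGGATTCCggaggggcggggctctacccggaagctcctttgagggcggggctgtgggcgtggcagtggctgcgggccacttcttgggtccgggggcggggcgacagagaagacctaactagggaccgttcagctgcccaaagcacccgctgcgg
Bcl3, chr7:19822706-19823005, minus strand: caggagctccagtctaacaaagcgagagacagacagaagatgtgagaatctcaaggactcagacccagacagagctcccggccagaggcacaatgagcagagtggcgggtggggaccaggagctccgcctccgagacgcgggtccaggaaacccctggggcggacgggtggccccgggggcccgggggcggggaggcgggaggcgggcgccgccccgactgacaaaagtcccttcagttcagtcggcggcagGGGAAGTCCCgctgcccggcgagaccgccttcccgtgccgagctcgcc
In the Rel window the decamer overlapped itself on both strands and began 92 bases before the start, and in the Nfkbia window it began 29 bases before the start. Nfkb2 had 2 sites in the window printed, 39 and 11 bases before its start, and 4 distinct sites over its 3 windows. The STAT motif of Nfkb2 began 148 bases before the same start. The Nfkbie site began 106 bases before the start and the Bcl3 site lay just after it, at base 3 of the transcript. These are matches of letters, and binding was not measured.

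The level of the 10 mRNAs differed little between the cultures. Of the 10 genes, 0 were at least 1.5-fold higher with IL-6, against 1.02% of the 13843 genes measured on both arrays. At least 1.5-fold lower were 0 of the 10, against 0.527%. Few or none of 10 genes would be past that size at these rates, so the counts of 0 do not set the members apart. The 141 higher and 73 lower genes behind these rates fell to 6 and 9 with a stricter filter on dim probes. Log2 ratios, GM-CSF + IL-6 over GM-CSF ONLY, ran from -0.30 for Rel to 0.10 for Nfkbiz. Below 0 were 7 of the 10 and above 0 were 3, where 56.2% of all genes measured were lower and 43.8% higher. In level classes 3 and 4 (of 4 equal classes by signal, 4 the brightest), which hold all members but Rel, 60.4% and 60.3% of genes were lower. The median of the 10 was -0.09, beside -0.02 over all genes and -0.03 in each of these 2 classes. Signals below are processed intensities, scaled so that both arrays have the same 75th percentile, and compare 1 probe between arrays only. The error beside a log2 ratio is a technical SD from probes printed several times on the array, and it covers spot error, not labelling or culture.

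**Figure D1:**
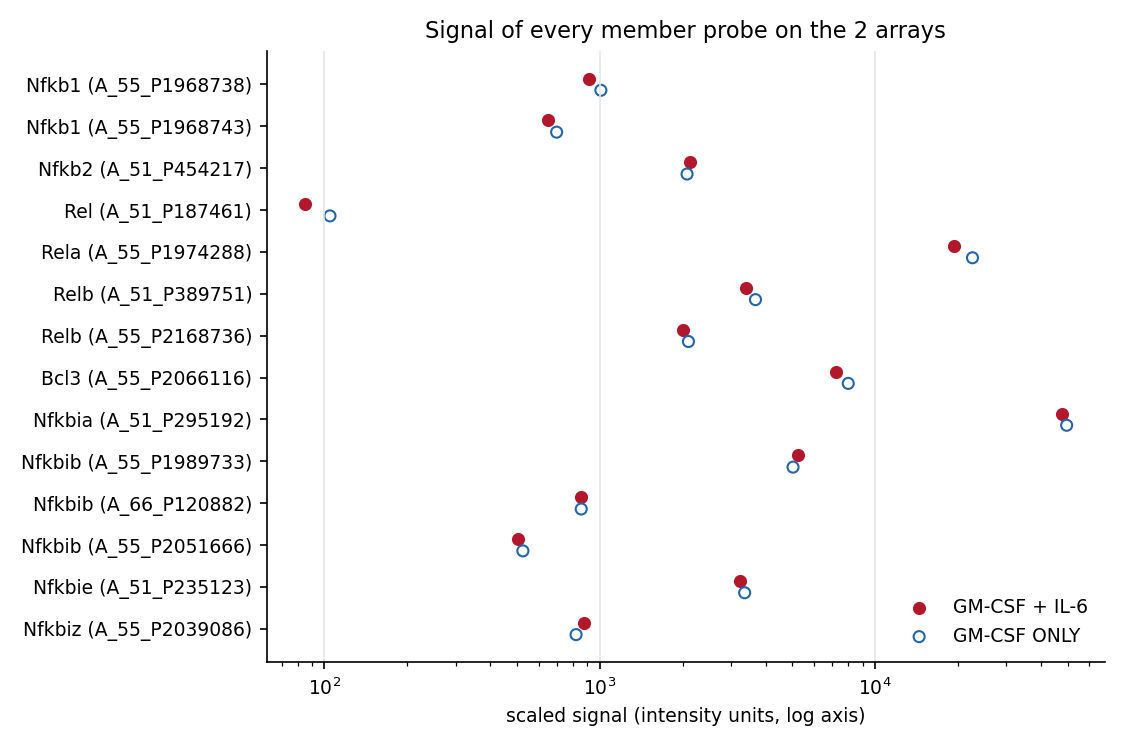
Scaled signal (intensity units, log axis) of each of the 14 member probes on the GM-CSF + IL-6 array (filled) and the GM-CSF ONLY array (open), 1 row per probe. The 2 points of a probe lie close together in every row, with the widest gap for Rel, at 84.9 with IL-6 and 104.7 without.

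Among the subunits, 4 of 5 were lower with IL-6, beside 56.2% of all genes measured and 60.4% and 60.3% in level classes 3 and 4. Rela, which encodes p65, the main activating subunit of the canonical route, had a signal of 19417 in the GM-CSF + IL-6 culture, against 22577 in the GM-CSF ONLY culture. It was 1.16-fold lower, a log2 ratio of -0.22 ± 0.04 on its single probe, and among the 3461 genes of its level class (1 of 4 equal classes by signal) 4.54% had a lower ratio. The difference is several times the spot error, and its size depended on the processing. With normexp background correction on the raw mean signals, followed by quantile normalization, the log2 ratio was -0.11. The Rela spot lay in column 155 of 164, and there the extraction software had divided the signal by a detrending factor of 0.972 for GM-CSF + IL-6 and 0.918 for GM-CSF ONLY, a log2 difference of 0.08. That factor is part of the processed signal and not of the normexp values, and its part in the change with normexp was not tested. The median log2 ratio of the bright spots around Rela, from the same processed signals, was -0.00, so the value relative to its neighbours was -0.21.

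Rel, which encodes c-Rel, an activating subunit of blood cells, had the lowest ratio of the 10. Its signal was 84.9 with IL-6, against 104.7 without, 1.23-fold lower. The log2 ratio was -0.30 ± 0.18, within 2 technical SDs of 0, and this probe lies in the lowest 25% of genes by signal, where spot error is largest. In its level class 11.4% of genes had a lower ratio still.

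Nfkb1 encodes the precursor p105, which is cut to p50, the partner of p65. One of its probes was printed at 2 places on the array and averaged 909.9 with IL-6, against 1009 without, a log2 ratio of -0.15 ± 0.05. The 2 spots gave 896.4 with IL-6 against 1043 without and 923.6 against 976.4, log2 ratios of -0.22 and -0.08, so both pointed the same way and differed from each other by almost as much as their mean. The other Nfkb1 probe had 650.1 with IL-6, against 696.9 without (-0.10 ± 0.07). All 3 spots of the gene were lower with IL-6.

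The subunits of the non-canonical route did not share a direction. Relb, the partner of p52, had 3405 with IL-6, against 3676 without, a log2 ratio of -0.11 ± 0.05. Its other probe had 2002 with IL-6, against 2099 without (-0.07 ± 0.06), close to the median of all genes. Nfkb2, the precursor of p52, was the 1 subunit with a positive ratio, at 2126 with IL-6 against 2074 without (0.04 ± 0.06), which is smaller than its spot error. With normexp its log2 ratio was -0.01.

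**Figure D2:**
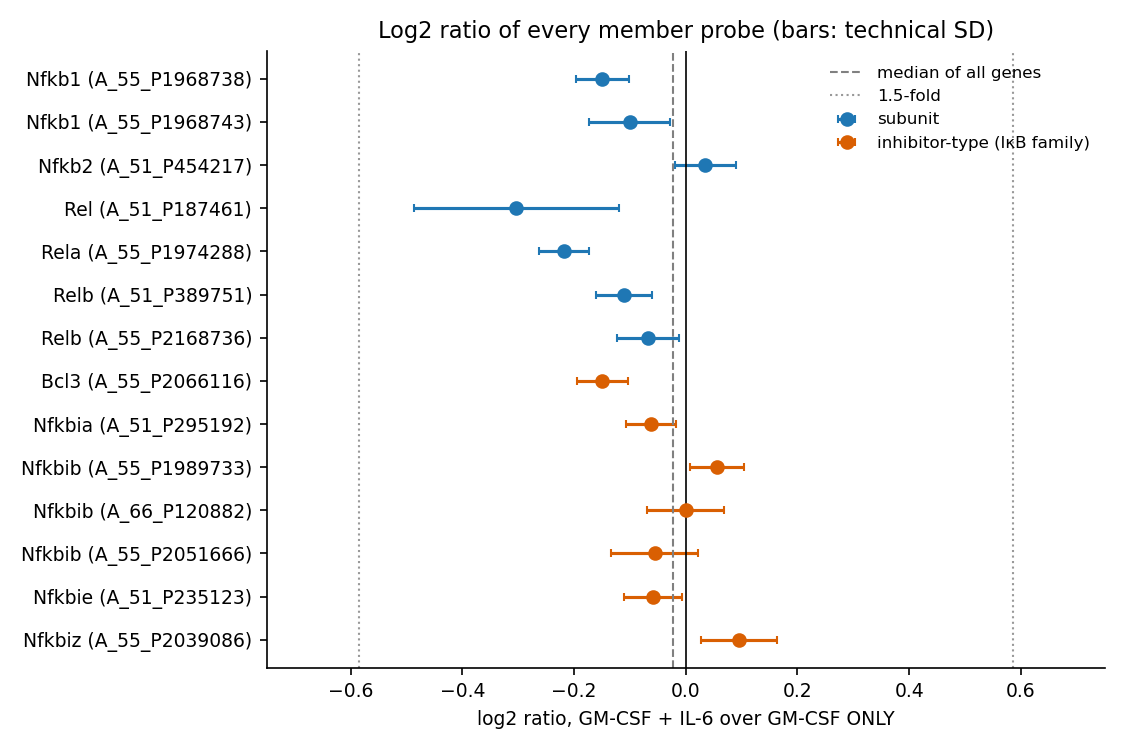
Log2 ratio of each member probe, GM-CSF + IL-6 over GM-CSF ONLY, with bars of 1 technical SD, for subunits (blue) and IkB family members (orange). Every probe lies inside the dotted lines at 1.5-fold. Left of the dashed median of all genes (-0.02) lie 6 of the 7 subunit probes, where Nfkb1 and Relb have more than 1 probe each. The probes of Bcl3, Nfkbia and Nfkbie and 1 of Nfkbib lie left of it too. Those of Nfkbiz and the other Nfkbib probes lie right of it.

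The classical inhibitors had ratios near 0. Nfkbia, which encodes IkB-alpha, the inhibitor that is destroyed and made again in each round of signalling, had a signal of 47547 with IL-6, against 49624 without, a log2 ratio of -0.06 ± 0.04. Nfkbie, which encodes IkB-epsilon, had 3225 with IL-6, against 3358 without (-0.06 ± 0.05), and the bright spots around it had a median of 0.06, which places it at -0.12 relative to them. For Nfkbia 38.5% of the genes in its level class had a lower ratio, and for Nfkbie 40.1%, so both lay near the middle.

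Nfkbib, which encodes IkB-beta, was read by 3 probes that spanned 0. The probe taken for the gene had 5231 with IL-6, against 5034 without (0.06 ± 0.05). The second had 855.9 with IL-6, against 856.1 without, and its spot lay in the outermost column, 164. The third had 505.6 with IL-6, against 525.6 without (-0.06 ± 0.08). Each of the 3 ratios lay within 2 technical SDs of 0, so the direction for this gene rests on which probe is taken.

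The nuclear members of the family had ratios of opposite sign, but that of Nfkbiz lay within 2 technical SDs of 0. Bcl3, which binds p50 and p52 pairs on DNA, had 7201 with IL-6, against 7987 without, 1.11-fold lower (log2 ratio -0.15 ± 0.05), and it was -0.12 relative to its neighbouring spots. Nfkbiz, which encodes IkB-zeta, needed in macrophages for a late set of inflammatory genes, had 876.1 with IL-6, against 820.0 without, 1.07-fold higher. Its log2 ratio of 0.10 ± 0.07 was the highest of the 10, and 83.8% of the genes in its level class had a lower one.

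**Figure D3:**
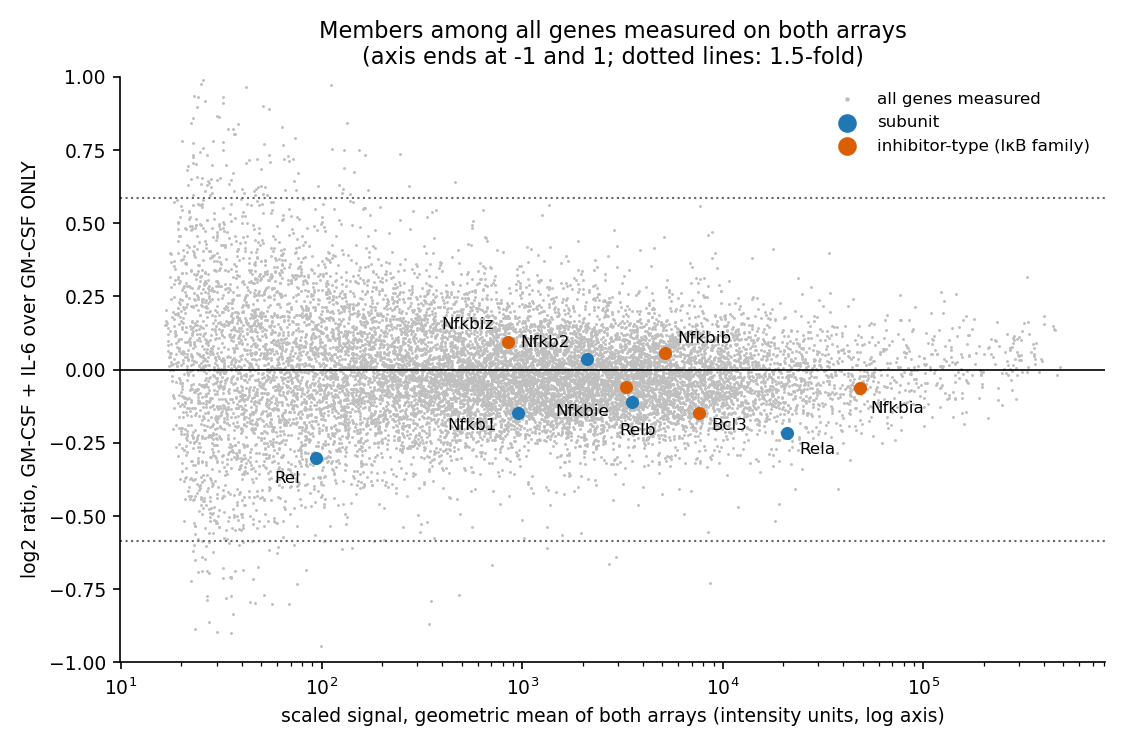
Log2 ratio, GM-CSF + IL-6 over GM-CSF ONLY, against the scaled signal of both arrays (geometric mean, log axis) for the 13843 genes measured (grey), with the subunits in blue and the IkB family members in orange; genes beyond -1 or 1 are outside the axis. The members lie within the cloud of genes of like signal, with Rela in its lower part.

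As groups, the subunits had a median log2 ratio of -0.15 (range -0.30 to 0.04, 4 of 5 lower). The IkB family members had -0.06 (range -0.15 to 0.10, 3 of 5 lower). The ranges overlapped. Of all genes measured 56.2% were lower, and of those in level classes 3 and 4 60.4% and 60.3%. The difference of the medians was -0.09. A difference of this kind does not move when a whole array is scaled by a constant, and it ran from -0.09 to -0.06 over the settings tried. Set against Nfkbia on the same arrays, the log2 ratio of Rela was lower by 0.16, with a technical SD of 0.06 for the difference, and that of Rel by 0.24 with an SD of 0.19. The corresponding differences were -0.09 ± 0.06 for Nfkb1, -0.05 ± 0.07 for Relb and 0.10 ± 0.07 for Nfkb2. With normexp the difference between Rela and Nfkbia was -0.01, so it did not hold there. Nfkbia was the only reference used, and Bcl3, also of the IkB family, had a lower log2 ratio of -0.15, like that of Nfkb1.

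The sign of 8 of the 10 ratios was the same under all 9 processing settings run on single genes, the reported one included: Rel, Rela, Nfkb1, Bcl3, Relb, Nfkbia and Nfkbie were below 0 in each and Nfkbiz above 0. Nfkb2 was below 0 in 1 setting (normexp) and Nfkbib in 1 (the median of its 3 probes). Rel ran from -0.31 to -0.22 and Nfkbia from -0.10 to -0.04. The settings are not separate checks. No member spot was flagged, so keeping outlier spots changed no member's value, and the median over probes changed none for genes with 1 probe. Median centring shifts all genes by the same small amount, and the authors' matrix gave values close to those of quantile normalization. An unchanged sign over settings describes these 2 arrays and says nothing of another culture.

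**Figure D4:**
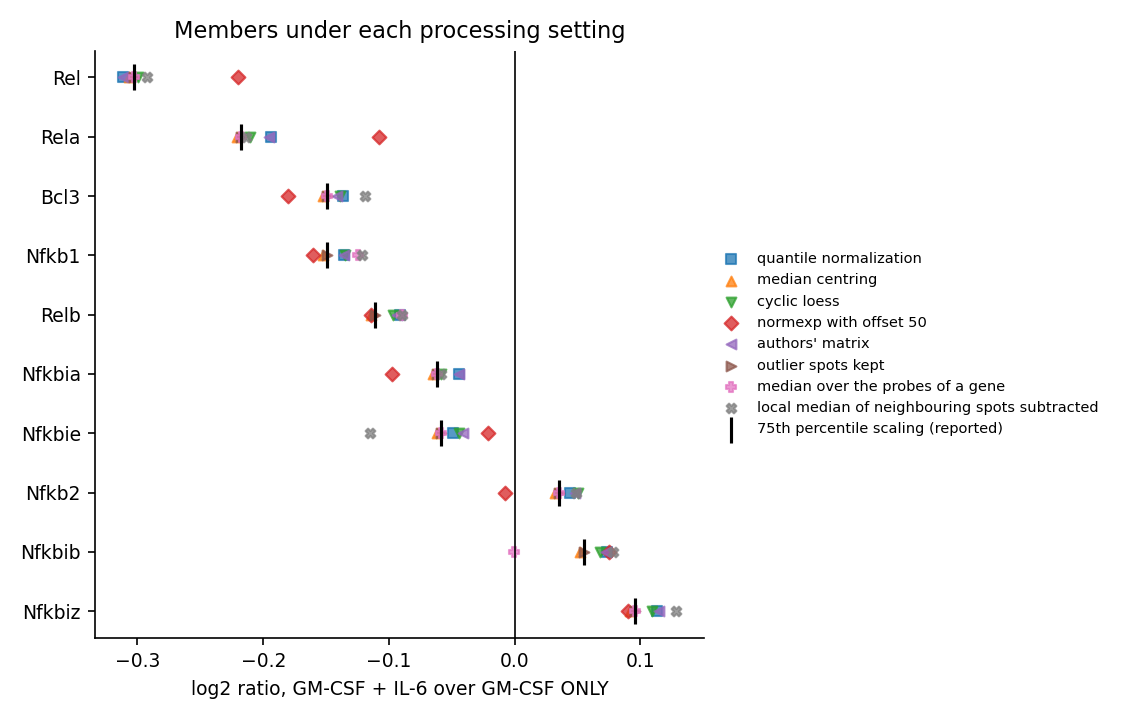
Log2 ratio of each member, GM-CSF + IL-6 over GM-CSF ONLY, under each processing setting (symbols) and as reported (black bars), ordered from Rel, the lowest at -0.30, to Nfkbiz, the highest at 0.10. The normexp symbols of Rel and Rela stand to the right of the others, at -0.22 and -0.11.

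Genes upstream of NF-kB differed by amounts of the same size. Of 11 kinases and kinase partners of the pathway 8 were lower with IL-6 (median -0.06, range -0.20 to 0.09), beside 56.2% of all genes measured. In the brighter level classes 3 and 4 the share lower was 60.4% and 60.3%, which also stands beside the lists below. Ikbke, an IkB kinase relative that also acts in interferon induction, had 760.3 with IL-6, against 875.7 without (-0.20 ± 0.07), and Tab2, an adaptor of the kinase TAK1, had -0.16 ± 0.05. Chuk, the IkB kinase of the non-canonical route, had 0.08 ± 0.05, and Map3k14, the kinase that activates it, 0.09 ± 0.05, with 0.03 on its other probe. Of 17 receptor-proximal adaptors 13 were lower (median -0.08), beside the same 56.2%. Whether the count of these or the other lists is particular to them was not tested, and the lists were chosen with earlier results of these data known. The lowest of the adaptors was Tradd, that of the TNF receptor, at 5279 with IL-6 against 6217 without (-0.24 ± 0.05). Traf5 had -0.21 ± 0.07 and Bcl10 -0.19 ± 0.05. At the other end was Irak2, which acts in Toll-like receptor signalling, at 0.08 ± 0.04 (0.09 on its other probe). The adaptor median was -0.02 with normexp.

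Of 17 genes that edit ubiquitin chains or brake the pathway, 15 were lower with IL-6 (median -0.10, range -0.31 to 0.14). Of all genes measured 56.2% were lower, and of those in level classes 3 and 4 60.4% and 60.3%. Nlrc5, best known as the activator of MHC class I genes, had 2768 with IL-6, against 3441 without (-0.31 ± 0.05), but its other, dim probe gave 0.05. Zc3h12a, an RNase that degrades inflammatory mRNAs, had -0.23 ± 0.08 and Otulin, which cuts linear ubiquitin chains, -0.16 ± 0.05. Rbck1, part of the enzyme that builds those chains, was at the other end with 0.14 ± 0.05. Of 7 measured of 8 other IkB-type and partner proteins 2 were lower (median 0.04), among them Nkap at -0.22 ± 0.09, while Nkiras1, a dim probe, had 0.27 ± 0.15. Nfkbid, which encodes another nuclear IkB protein, had 5258 with IL-6, against 4787 without, a log2 ratio of 0.14 ± 0.05.

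Known targets of NF-kB lay on both sides of 0. Of 28 measured of 30, 19 were lower and 9 higher with IL-6, beside 56.2% and 43.8% of all genes, with a median of -0.10 and a wider range than the members, from -0.51 to 0.48. At least 1.5-fold higher were 0 of the 28, beside 1.02% of all genes, and at least 1.5-fold lower 0, beside 0.527%, so few or none would be past that size at the rate of all genes. Vcam1, an adhesion molecule, had 1512 with IL-6, against 1945 without (-0.36 ± 0.06), with -0.11 on its other, dim probe. The chemokine genes Cxcl10 and Ccl5, at -0.51 and -0.47, are also targets of interferon signalling. Tnf had the highest ratio, at 3379 with IL-6 against 2430 without (0.48 ± 0.02). Outside the lowest 25% by signal it was followed by Il1a at 0.17 ± 0.13 and Ccl4 at 0.10 ± 0.05, and among the dim genes Plau, named after its value was seen, had 0.36. Of 8 measured of 9 receptors and ligands of the non-canonical route 5 were lower and 3 higher (median -0.14, and -0.05 with the median over probes). The lowest was Tnfsf13b, the B cell survival factor BAFF, at 228.7 with IL-6 against 308.3 without (-0.43 ± 0.12). Tnfsf14 had -0.21 ± 0.05, while Tnfrsf11a, the receptor RANK, had 0.02 ± 0.06 and Ltb, a subunit of lymphotoxin, 0.01 ± 0.04. Tnfrsf13c, the BAFF receptor, had -0.19 ± 0.06 on its bright probe and 0.34 on its dim one.

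**Figure D5:**
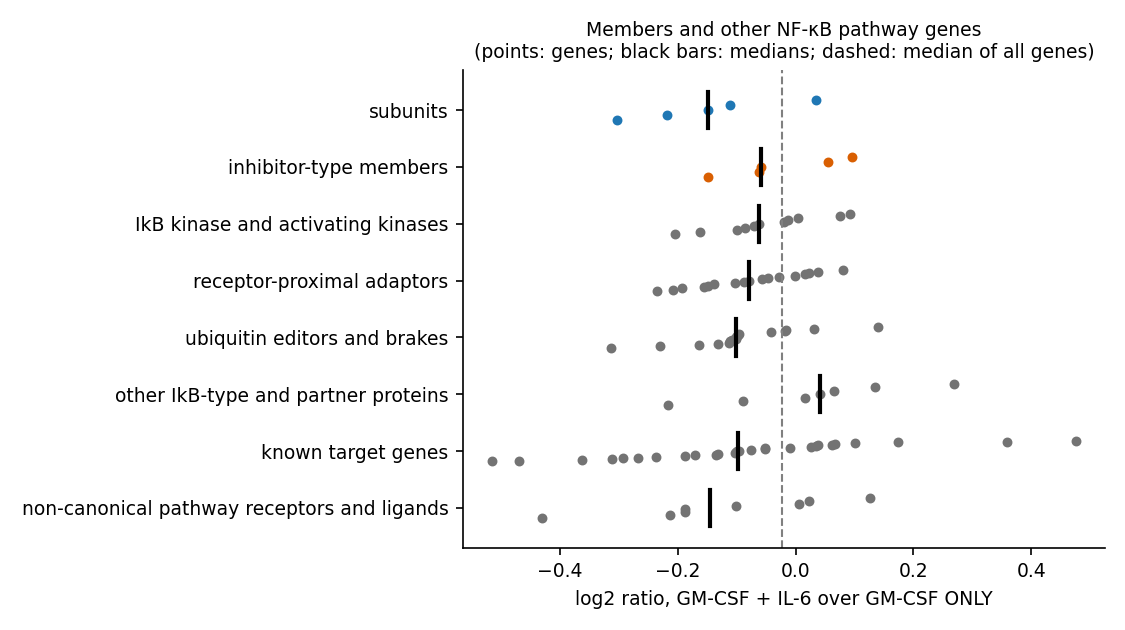
Log2 ratio, GM-CSF + IL-6 over GM-CSF ONLY, of each gene (points) with the median of its list (black bars) for the members, by role, and for 6 lists of other NF-kB pathway genes; the dashed line is the median of all genes (-0.02). Known targets spread the most, from -0.51 for Cxcl10 to 0.48 for Tnf.

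The arrays were alike in quality, with 57.9% of probes well above background with IL-6 and 59.1% without, no saturated spot on either and, per the file headers, a shared slide and scan. All 10 myeloid markers, among them Itgam, S100a8 and Lyz2, were well above background on both arrays. The labelled cell type is myeloid, and these markers had a summed signal of 1174120 with IL-6 and 1113360 without. All 4 dendritic cell markers were lower with IL-6 (median -0.20, summed signal 138762 with IL-6 and 147849 without). One of them, Ccr7 (-0.27), is also in the list of known NF-kB targets above. All 5 mast cell and basophil markers were higher (median 0.20, 42132 and 37607). Of the megakaryocyte markers 3 of 4 were lower (median -0.15, 30907 and 33654), of the B cell markers 3 of 4 (median -0.02, 23745 and 24280), and of the T and NK cell markers 2 of 4 measured (median 0.02, 7750 and 7114). Stromal markers (4 of 5 measured) were dim and split, 2 lower and 2 higher, with a median of 0.26 and summed signals of 292.0 with IL-6 and 209.9 without. Of the markers of these lists, Ncr1 and Cxcl12 were not well above background on both arrays. Their signals are in the sums but not in the medians. Several of these medians lay as far from 0 as the ratios of the NF-kB genes, and their part in the values above was not tested. In RNA of a whole culture, fewer cells of a type and less RNA per cell cannot be told apart.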

How the data were processed

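The authors read spot intensities with Agilent Feature Extraction. Per the file headers this was version 10.7.1.1, with both detrending steps switched on. The deposited processed intensity is not scaled between arrays, and the deposited detrending factor is the ratio by which each spot was divided. The deposited series matrix holds log2 values, quantile-normalized as far as the values show (sorted columns differ by at most 0.00136). The program behind this step: not given in the sources used here.

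The value used was log2 of the processed intensity minus the 75th percentile of the array (486.2 with IL-6, 549.7 without). Spots marked non-uniform or population outlier were dropped, and the spots of a probe averaged. A probe was measured when at least 50% of its spots were well above background. A gene took its brightest measured probe. For printing, signals were put on a common 75th percentile of 517.0, the geometric mean of both. The technical SD comes from 266 probes that had 5 or more usable spots, as the spread of their spots' log2 ratios in 4 bins by level (0.21 for dim to 0.04 for bright probes). It was interpolated by level and, for averaged spots, divided by the root of their number. Members, pathway lists and markers were chosen with earlier results of these data known. From each list up to 3 genes per direction outside the lowest 25% by signal (155.6) were named, and all members. Neighbouring spots are bright spots within 12 rows and 12 columns. The number of arrays limits the precision. A check of the proteins' degradation motif was planned and not made, as no protein sequences were used here. The procedure was tested on simulated data with spot error only and planted changes far larger than those of the members. That test therefore does not cover differences of the members' size. Tools were Python 3.11.15 with numpy 2.4.6 and pandas 2.3.3, with matplotlib 3.10.9 for figures. R 4.3.3 with limma 3.58.1 gave quantile, cyclic loess and normexp values, and the normexp values were then quantile-normalized.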

Additional observations from a re-analysis of the deposited data

How the results depend on the processing

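Other scalings were median centring, quantile normalization and cyclic loess. Other values were normexp (offset 50), the authors' matrix, all spots with outliers, and the median over probes. Dim probes were also kept without a filter or filtered more strictly. Subtracting the median of neighbouring spots was chosen after seeing the data. The median of the 10 genes ran from -0.10 to -0.06 and the number lower from 6 (the stricter filter, which drops Rel) to 8. Values that moved by more than the technical SD were Rela with normexp (-0.11), Nfkbib with the median over probes (-0.00) and Nfkbie after subtraction of its neighbours (-0.12). Among list medians, that of the adaptors was -0.0174 with normexp and that of the non-canonical receptors and ligands -0.0481 with the median over probes. The counts of all genes at least 1.5-fold higher and lower, 141 and 73, were 24 and 11 with normexp, 996 and 738 without a filter and 6 and 9 with the stricter one. Normexp lifts dim signals and the filters change how many dim genes enter, and the cause was not tested beyond this. Depth of signal over background limits Rel most. No paired analysis was possible because there was 1 array a condition, and for the same reason no replicate could be left out and no slide or scan block fitted.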
